A study of Mus musculus with 8 samples.

Results

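The genes described here are 8 markers of regenerating, fetal-like intestinal epithelium, chosen by name: Ly6a, Msln, Plaur, Anxa1, Anxa3, Clu, Spp1 and Krt7. They are 8 of the 53465 genes in the deposited table, and all 8 belong to the 16380 genes with a mean of at least 3 that were tested. Messenger RNA was sequenced from the colon of 4 Arg1 ko mice and 4 wild-type littermates. The protocol lists 30 mM EDTA for every library and describes epithelial aggregates. Mice of both groups were on the B6 background, 7 to 12 weeks old, matched for age and sex, and given 2.5% dextran sulfate sodium (DSS), which injures the colon epithelium, for a week and then plain water until day 10. The Arg1 ko mice carried a conditional, cell-specific deletion of arginase 1, the enzyme that splits arginine into ornithine and urea, and the wild-type littermates expressed Arg1. The labels name neither the driver nor the cell type of the deletion, and no group without DSS was analysed here. Values are regularised log2 values (rlog), a log2 scale on which weakly expressed genes are drawn toward their mean, so differences of such genes are understated. The depth of each library is unknown.

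After injury, cells at the edge of an intestinal wound give up part of the program of the adult crypt and switch on genes that are otherwise active in the fetal gut. In mouse colon recovering from DSS, this state is recognised by the surface protein Ly6a (Sca-1), and signalling through the coactivator YAP and its TEAD partners is known to be needed for it. Clu marks a related, rare cell in the regenerating crypt. Several of the 8 genes are also active outside the epithelium: Msln in mesothelium, Spp1 in macrophages, Plaur and the annexins in neutrophils, and Ly6a in T cells and endothelium. In bulk material, fewer cells of a type and less RNA per cell cannot be told apart.

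Arg1 itself had 5.06, 4.87, 5.15 and 5.19 in Arg1 ko 1 to 4, against 5.59, 5.57, 5.02 and 5.58 in the libraries labelled as wild type 1 to 4. The library labelled wild type 3 lay within the Arg1 ko range, unlike the rest of the wild type, and it keeps that longer name here. Arg1 was weak, as only 16.8% of the tested genes had a lower mean, so this value alone does not settle the genotype. Wild-type libraries also scattered more, with a median SD over the tested genes of 0.096 in Arg1 ko and 0.258 in wild type. The 75 tested cytosolic ribosomal protein genes, taken as a yardstick of differences between libraries, had a median deviation from their own means of -0.32 to -0.08 in Arg1 ko, against 0.70, 0.40, -0.35 and 0.11 in the libraries labelled as wild type 1 to 4. Wild type 1 and 2 had the highest medians, and results are also given without that pair and without the library labelled wild type 3. Epithelial markers such as Car1 and Muc2 were abundant, as were smooth muscle markers such as Myh11 (mean 14.83) and Acta2 (mean 14.75), although the protocol describes epithelial aggregates. Mesothelial markers were present too, with Calb2 at a mean of 9.70 and Upk3b at 7.26.

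All 8 markers had a lower mean in Arg1 ko than in wild type, by a median of -0.34, while the median over all tested genes was 0.0064 and 48.8% of them were lower. For 4 markers, Msln, Plaur, Anxa1 and Clu, every Arg1 ko value lay below every wild-type value, which held for 1.67% of the tested genes. The same 4 had an unadjusted limma p under 0.05, as did 4.37% of the tested genes in that direction. None of the 8 passed the test over all genes (limma, Benjamini-Hochberg adjusted p between 0.522 and 0.661). No tested gene did (0% called), and 1490 genes, 9.1%, had an unadjusted p under 0.05. Without the library labelled wild type 3, limma called 6.14% of the tested genes, 3.28% as lower in Arg1 ko, and Msln and Plaur were among them.

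Markers of fibroblasts, the collagen-making cells of the connective tissue, mostly had higher means in Arg1 ko. Of 12 tested fibroblast markers 10 had a higher mean in Arg1 ko and 2 a lower one, with a median of 0.28, and 5 had every Arg1 ko value above every wild-type value, as did 2.36% of the tested genes. Their summed level was 15.49 to 15.61 in Arg1 ko and 15.18 to 15.44 in wild type, without overlap. Col3a1, a fibrillar collagen chain, differed by 0.70 and the collagen-binding proteoglycan Dcn by -0.11. None of the 12 passed the test (smallest limma adjusted p = 0.522), and their median was 0.21 without wild type 1 and 2. The part of fibroblasts in the differences of the 8 markers was not tested.

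**Figure D1:**
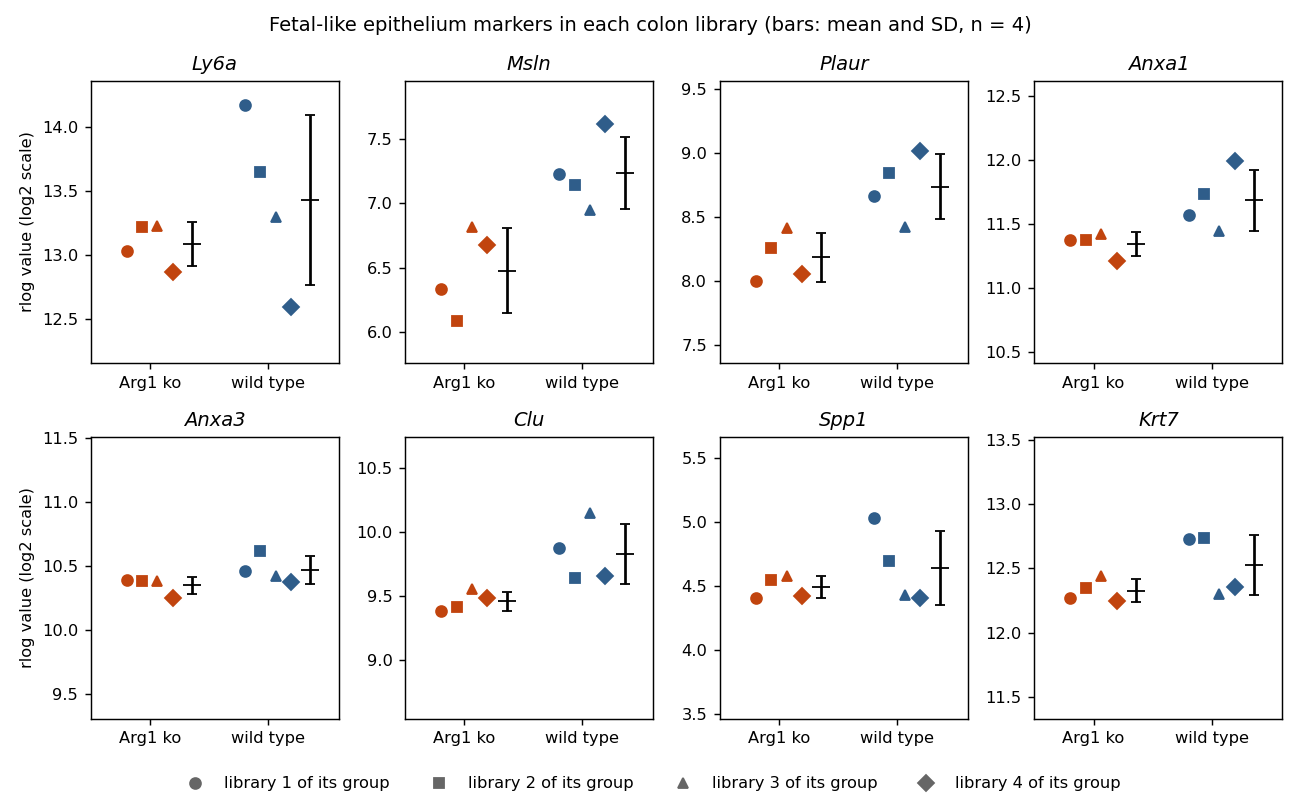
Value of each marker in every library on the rlog scale (log2), Arg1 ko on the left and wild type on the right of each panel. Each symbol is 1 library, the bar gives the mean and SD of 4, and every panel spans the same log2 range. Msln, Plaur, Anxa1 and Clu show no overlap between the groups, while wild type 4 is the lowest library of all for Ly6a.

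Msln and Plaur, which like Ly6a encode surface proteins held to the membrane by a lipid anchor, had the largest differences of the 8. Msln (ENSMUSG00000063011, chromosome 17, 25748613 to 25754378 on the minus strand, GRCm38) encodes mesothelin, an adhesion protein that binds the mucin Muc16. It had 6.33, 6.08, 6.81 and 6.67 in Arg1 ko 1 to 4, against 7.23, 7.14, 6.95 and 7.62 in the libraries labelled as wild type 1 to 4. The lowest wild-type value was 0.14 above the highest Arg1 ko value. Means were 6.48 ± 0.33 (SD, n = 4) in Arg1 ko and 7.23 ± 0.28 (SD, n = 4) in wild type, a difference of -0.76 (standard error 0.19) with a 95% interval of -1.19 to -0.33. On a linear scale that is 0.591 of the wild-type level. Once the library labelled wild type 3 was left out, the difference was -0.85 and passed (limma adjusted p = 0.0463; range over the alternatives 3.75e-04 to 0.819).

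Msln is also a defining gene of mesothelium, so mesothelial markers are given beside it. Of 9 tested mesothelial markers 7 had a lower mean in Arg1 ko, with a median of -0.17, and their summed level on a log2 scale was 10.20 to 10.51 in Arg1 ko and 10.40 to 10.83 in wild type. With wild type 2 left out the median came to -0.27, and with wild type 1 also left out to -0.33. Calb2, the mesothelial marker of highest mean (9.70), weighs most in the summed level and is not confined to mesothelium. No mesothelial marker was listed at 0, and none passed the test. Upk3b had 7.09 ± 0.40 (SD, n = 4) in Arg1 ko and 7.43 ± 0.09 (SD, n = 4) in wild type, and it was lowest in Arg1 ko 2 (6.50), the library with the lowest Msln. Wt1, named after its value was seen, differed by -0.26. Muc16, the partner of mesothelin, differed by 0.15. The part of mesothelium in the Msln difference was not tested.

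Plaur (ENSMUSG00000046223, chromosome 7, 24462484 to 24475968 on the plus strand, GRCm38) encodes the urokinase receptor, which focuses plasmin formation at the leading edge of migrating cells. Its values were 8.00, 8.26, 8.42 and 8.06 in Arg1 ko 1 to 4, against 8.67, 8.84, 8.42 and 9.02 in the libraries labelled as wild type 1 to 4. The groups were apart by only 0.0086, the distance between Arg1 ko 3 and the library labelled wild type 3. Plaur averaged 8.19 ± 0.19 (SD, n = 4) in Arg1 ko and 8.74 ± 0.25 (SD, n = 4) in wild type, and the difference was -0.55 with a standard error of 0.15 and a 95% interval of -0.89 to -0.22. Without the library labelled wild type 3 it was -0.66 and passed (limma adjusted p = 0.0368; range over the alternatives 2.15e-05 to 0.819). Leaving out a wild-type library near the Arg1 ko values enlarges such differences by construction.

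The rest of the urokinase system did not show one direction. Arg1 ko had higher means for 4 and lower means for 6 of its 10 tested genes, none passed the test, and the median was -0.07, or -0.02 with wild type 1 left out and -0.04 with wild type 2 left out. Plau, the urokinase that Plaur binds, had 8.60 ± 0.09 (SD, n = 4) in Arg1 ko and 8.60 ± 0.16 (SD, n = 4) in wild type; it is named after its value was seen. Those of smallest p were the protease inhibitor Serpine2 (-0.29), the collagen receptor Mrc2 (0.24), the plasminogen activator Plat (-0.35) and the endocytic receptor Lrp1 (0.33).

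Neutrophils also carry this receptor, and their markers are given beside Plaur. Of 10 tested neutrophil markers 8 had a lower mean in Arg1 ko, with a median of -0.36, and the summed level was 9.39 to 9.70 in Arg1 ko and 9.40 to 10.92 in wild type, lowest there in the library labelled wild type 3. Leaving out wild type 2 gave a median of -0.20, and leaving out wild type 1 as well gave -0.07. None of the 10 passed the test, none was listed at 0, and Cxcr2 and Camp had a mean under 3. Ly6g, which marks mature neutrophils, had 6.94, 7.55, 8.25 and 7.50 in Arg1 ko 1 to 4, against 9.18, 9.93, 7.21 and 9.32 in the libraries labelled as wild type 1 to 4. For this gene the library labelled wild type 3 lay within the Arg1 ko range, below Arg1 ko 2, 3 and 4. Whether neutrophils account for part of the Plaur or annexin differences was not tested.

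The annexins are calcium-dependent proteins that bind membrane phospholipid. Anxa1 (ENSMUSG00000024659, chromosome 19, 20373428 to 20390944 on the minus strand, GRCm38) limits inflammation and speeds mucosal wound closure by way of formyl peptide receptors. It had 11.37, 11.37, 11.43 and 11.21 in Arg1 ko 1 to 4, against 11.57, 11.74, 11.45 and 12.00 in the libraries labelled as wild type 1 to 4. Arg1 ko 3 and the library labelled wild type 3 were again the nearest pair, 0.022 apart. The means of 11.35 ± 0.09 (SD, n = 4) in Arg1 ko and 11.69 ± 0.24 (SD, n = 4) in wild type differed by -0.34, with a standard error of 0.12 and a 95% interval of -0.62 to -0.07 (limma adjusted p = 0.522). The difference was -0.24 without wild type 4.

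Anxa3 (ENSMUSG00000029484, chromosome 5, 96793339 to 96845966 on the plus strand, GRCm38) had the smallest difference of the 8. Its values were 10.39, 10.38, 10.38 and 10.25 in Arg1 ko 1 to 4, against 10.46, 10.62, 10.42 and 10.37 in the libraries labelled as wild type 1 to 4. Wild type 4 lay inside the Arg1 ko range. The difference was -0.12 with a standard error of 0.09 and a 95% interval of -0.32 to 0.08 (limma adjusted p = 0.591). It shrank to -0.07 when wild type 2 was left out and to -0.05 without wild type 1 and 2.

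Among all 11 tested annexins the mean was lower in Arg1 ko for 7 and higher for 4. Their median was -0.06 (-0.12 to -0.03 with 1 library left out, Arg1 ko and wild type alike). Anxa1 was the only one with an unadjusted limma p under 0.05, which 9.1% of all tested genes had. Anxa2, the most abundant in rlog value, differed by -0.19 and Anxa7 by -0.16. The formyl peptide receptors Fpr1 and Fpr2 differed by -0.09 and 0.04, and Fpr3 was listed at 0 in all 8 libraries. The S100 proteins, small calcium sensors of which several pair with annexins, were lower in 6 of 6 tested genes, with a median of -0.32. S100a6 differed by -0.57, S100a10 by -0.33, S100a16 by -0.33 and S100a11 by -0.30. None passed the test, and the median of the 6 was -0.12 with wild type 1 left out and 0.06 with wild type 2 left out as well.

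Promoters are shown for Plaur and Anxa1 because these are the 2 of the 4 non-overlapping markers with an entry in the RefSeq promoter table (GRCm38.p6), which holds 4 of the 8 markers. Each runs from 250 bases before to 50 bases after an annotated start, 5′ to 3′ on the gene's strand, at chr7:24462233-24462532 (plus) and chr19:20390622-20390921 (minus). Capitals mark matches to 3 motifs searched on both strands: GGAATG for TEAD factors, TGANTCA for AP-1 and TTCNNNGAA for STAT factors.
Plaur: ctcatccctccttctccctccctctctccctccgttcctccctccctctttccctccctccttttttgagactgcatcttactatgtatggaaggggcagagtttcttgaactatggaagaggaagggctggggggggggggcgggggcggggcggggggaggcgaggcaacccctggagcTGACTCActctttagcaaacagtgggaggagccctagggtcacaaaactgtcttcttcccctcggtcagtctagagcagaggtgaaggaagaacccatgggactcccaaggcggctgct
Anxa1: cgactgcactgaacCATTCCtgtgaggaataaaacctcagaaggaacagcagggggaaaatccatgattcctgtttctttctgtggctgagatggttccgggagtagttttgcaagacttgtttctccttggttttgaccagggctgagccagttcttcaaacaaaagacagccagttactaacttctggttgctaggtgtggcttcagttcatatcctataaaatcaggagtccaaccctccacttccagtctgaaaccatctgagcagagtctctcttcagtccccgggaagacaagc
The Plaur window holds 1 AP-1 match that begins at position -69 from the start, and such a match occurs in 7.81% of the 32851 promoters in the table. The Anxa1 window holds 1 TEAD match, in the reverse orientation, beginning at position -236, and 14.7% of the promoters hold that motif. The matches do not overlap another motif, and a match is a description of the letters and no evidence of binding. The STAT motif, present in 8.30% of promoters, was found in neither window. The windows of Krt7 and Spp1 hold none of the 3 motifs.

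Clu and Spp1 encode secreted proteins. Clu (ENSMUSG00000022037, chromosome 14, 65968483 to 65981547 on the plus strand, GRCm38) encodes clusterin, an extracellular chaperone. Its values were 9.39, 9.41, 9.55 and 9.49 in Arg1 ko 1 to 4, against 9.87, 9.64, 10.14 and 9.66 in the libraries labelled as wild type 1 to 4. Clu was the marker for which the library labelled wild type 3 was highest of all, so its groups were apart by another pattern than those of Msln, Plaur and Anxa1. Clu averaged 9.46 ± 0.08 (SD, n = 4) in Arg1 ko and 9.83 ± 0.24 (SD, n = 4) in wild type. The difference of -0.37 had a standard error of 0.12 and a 95% interval of -0.65 to -0.10 (limma adjusted p = 0.522), and was -0.27 without the library labelled wild type 3. Of its 4 tested receptors 2 were higher and 2 lower, from Lrp8 (0.25) and Plxna4 (0.13) to Trem2 (-0.01) and Vldlr (-0.17). M cells are antigen-sampling epithelial cells in which Clu is also active. Their summed marker level was 12.53 to 12.61 in Arg1 ko and 12.42 to 12.79 in wild type. Of 7 tested M-cell markers 6 had a lower mean in Arg1 ko, with a median of -0.16, and none passed the test. That median was 0.06 without wild type 1 and 2. The M-cell marker Gp2 had a mean under 3. The part of M cells in the Clu values was not tested.

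Spp1 (ENSMUSG00000029304, chromosome 5, 104435118 to 104441050 on the plus strand, GRCm38) encodes osteopontin, a phosphoprotein that binds integrins and Cd44. It was the weakest of the 8, and 12.0% of the tested genes had a lower mean. Values were 4.41, 4.55, 4.58 and 4.42 in Arg1 ko 1 to 4, against 5.03, 4.69, 4.43 and 4.41 in the libraries labelled as wild type 1 to 4. Only wild type 1 and 2 exceeded the Arg1 ko range. The difference was -0.15 with a standard error of 0.15 and a 95% interval of -0.48 to 0.18 (limma adjusted p = 0.661). Leaving out wild type 1 gave -0.02, and leaving out wild type 1 and 2 gave 0.068. Osteopontin receptors were higher in 6 and lower in 4 of 10 tested genes, with Cd44 at 0.30, Itga9 at 0.25, Itgav at 0.21 and Itgb6 at -0.14. Macrophage markers, none of them at 0, had a summed level of 14.10 to 14.20 in Arg1 ko and 13.99 to 14.42 in wild type, highest in wild type 1 as Spp1 was. The part of macrophages in the Spp1 values was not tested.

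Krt7 (ENSMUSG00000023039, chromosome 15, 101411043 to 101430313 on the plus strand, GRCm38) encodes a keratin of simple epithelia that is scarce in resting adult colon. It had 12.27, 12.35, 12.44 and 12.25 in Arg1 ko 1 to 4, against 12.73, 12.74, 12.30 and 12.36 in the libraries labelled as wild type 1 to 4. The last 2 of these wild-type libraries lay inside the Arg1 ko range. Krt7 averaged 12.33 ± 0.09 (SD, n = 4) in Arg1 ko and 12.53 ± 0.23 (SD, n = 4) in wild type, a difference of -0.20 with a 95% interval of -0.48 to 0.07 (limma adjusted p = 0.546), and of 0.00046 without wild type 1 and 2. Of 6 other keratins listed beside it 4 were lower and 2 higher in Arg1 ko. Krt18 differed by -0.35, Krt222 by -0.23, Krt80 by 0.30 and Krt8 by -0.11. Krt222 and Krt80 were weak, with means of 5.71 and 4.63. The abundant Krt19 and Krt20, named after their values were seen, differed by -0.03 and 0.04. Summed epithelial markers overlapped between the groups, at 19.26 to 19.52 in Arg1 ko and 19.16 to 19.50 in wild type.

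Ly6a (ENSMUSG00000075602, chromosome 15, 74994877 to 74998031 on the minus strand, GRCm38) is the surface protein by which the fetal-like state is most often sorted. Its values were 13.03, 13.22, 13.23 and 12.87 in Arg1 ko 1 to 4, against 14.17, 13.65, 13.30 and 12.59 in the libraries labelled as wild type 1 to 4. Wild type alone spanned 1.58, against 0.36 in Arg1 ko, and held both the highest and the lowest library. The means of 13.09 ± 0.17 (SD, n = 4) in Arg1 ko and 13.43 ± 0.66 (SD, n = 4) in wild type differed by -0.34, with a 95% interval of -0.96 to 0.28 (limma adjusted p = 0.612). Without wild type 1 the difference was -0.09, without wild type 4 it was -0.62, and without wild type 1 and 2 it was 0.14.

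Over the 8 libraries, Psmb8, an immunoproteasome subunit induced by interferon, and Cd3d, a chain of the T-cell receptor complex, had the profiles most like that of Ly6a. Interferon gamma, which induces Ly6a, had targets whose median deviation was -0.09 to 0.14 in Arg1 ko, against 0.65, -0.27, -0.09 and -0.50 in the libraries labelled as wild type 1 to 4. Arg1 ko had higher means for 9 and lower means for 4 of the 13 tested targets, with a median of 0.08. The sign of that median turned on single libraries: leaving out wild type 1 gave 0.36, wild type 2 -0.05, wild type 4 -0.09, and the pair of wild type 1 and 2 gave 0.31. T-cell markers had a summed level of 10.50 to 10.78 in Arg1 ko and 9.99 to 10.86 in wild type, lowest in wild type 4 and highest in wild type 1. Endothelial markers were at 12.73 to 12.87 in Arg1 ko and 12.78 to 12.98 in wild type. No T-cell or endothelial marker was at 0, and their part in the Ly6a values was not tested.

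Ly6a has close relatives, and 18.97% of the 50-base stretches in its transcripts also occur in those of other genes, mainly Ly6c1 and Ly6i. Its reads may therefore be partly shared or lost in counting. Ly6c1, a surface protein of endothelium, differed by -0.36, and Ly6i had a mean under 3. Of 13 tested Ly6 family genes, Ly6a among them, 12 were lower in Arg1 ko, with a median of -0.23. The median was -0.09 with wild type 1 left out and 0.03 with both wild type 1 and 2 left out. For Spp1 the shared stretches came to 11.6%, all with the overlapping gene Gm42793. Krt7 overlaps Gm671 on the opposite strand, and as no source used here gives the strand setting of the counting, their reads may not have been told apart.

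Over the libraries the 8 markers showed 2 main patterns. Msln, Plaur and Anxa1 were highest in wild type 4 and differed by -0.81, -0.54 and -0.37 without wild type 1 and 2, and Clu by -0.44. Ly6a and Spp1 were highest in wild type 1 and lowest in wild type 4, and these 2 and Krt7 had no negative difference without wild type 1 and 2. The profiles of Spp1 and Krt7 were the closest of the 28 pairs, with a root mean square difference of 0.095 over 8 libraries, followed by Anxa3 and Krt7 (0.122) and by Plaur and Anxa1 (0.146). Ly6a and Msln were the least alike (0.614). For Ly6a, Spp1, Krt7 and Anxa3, as for the ribosomal protein genes, wild type 1 and 2 were the highest libraries. Msln, Plaur and Anxa1 were also above their means there, but peaked in wild type 4. What sets wild type 1 and 2 apart was not tested.

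**Figure D2:**
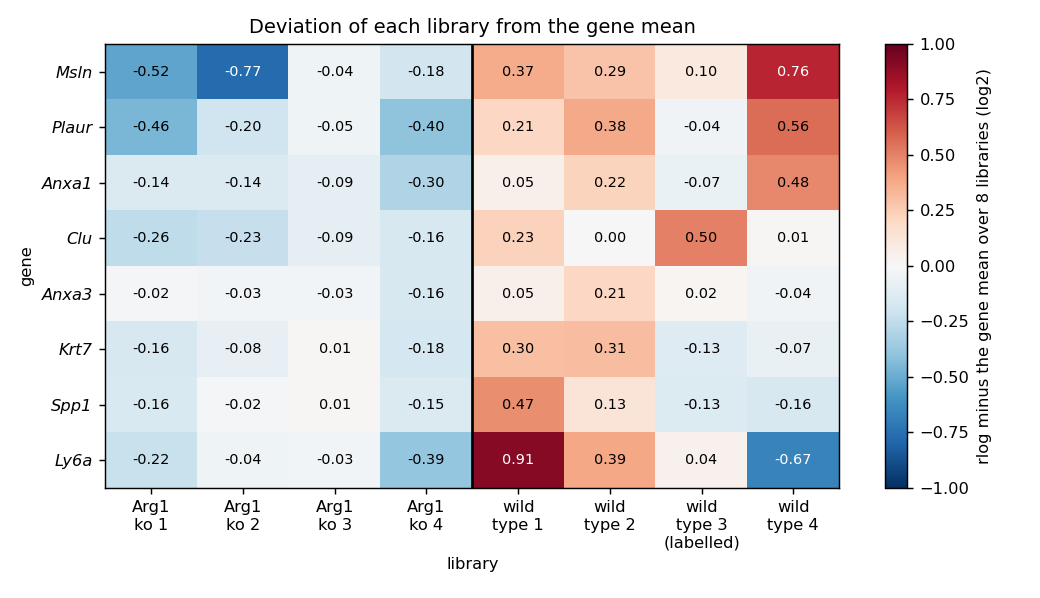
Deviation of each library (columns, Arg1 ko on the left of the line) from the mean of each marker over the 8 libraries (log2). Msln, Plaur and Anxa1 peak in wild type 4, Clu in the library labelled wild type 3, and Ly6a and Spp1 in wild type 1.

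**Figure D3:**
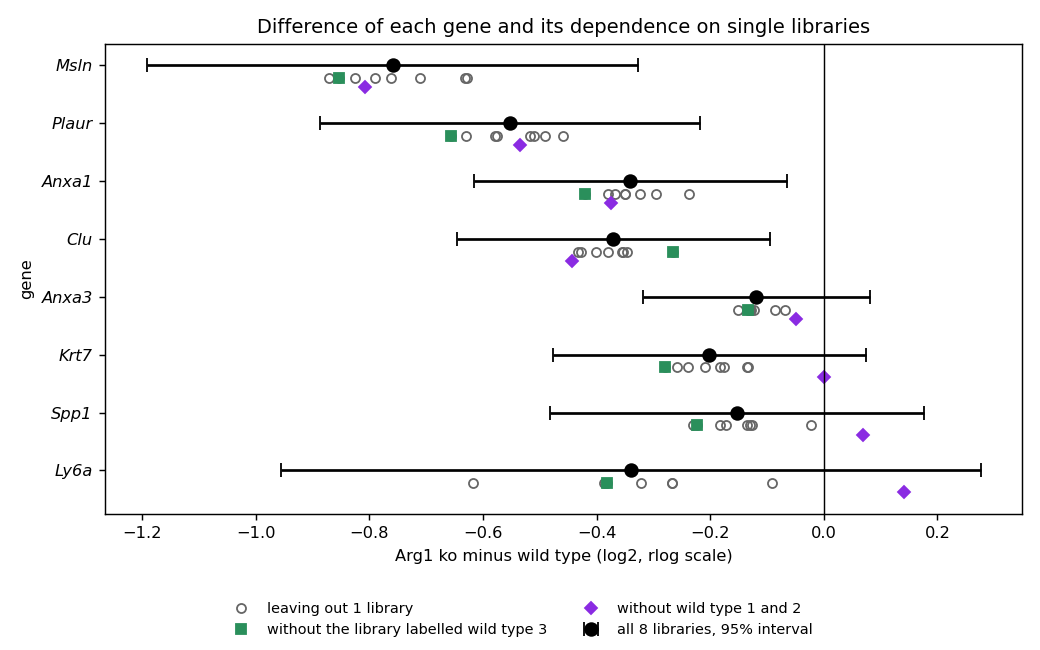
Difference of each marker, Arg1 ko minus wild type (log2, rlog scale), with its 95% interval over 8 libraries (black), after leaving out 1 library (open circles, squares for the library labelled wild type 3) and without wild type 1 and 2 (diamonds). The intervals of Msln, Plaur, Anxa1 and Clu lie below 0, and the diamonds of Krt7, Spp1 and Ly6a lie at 0.00046, 0.068 and 0.14.

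Levels of the 8 markers were compared per kilobase of exon, as the rlog value minus the log2 of the exon length. Ranks among the tested genes given elsewhere use the rlog value without that correction. Ly6a was the highest of the 8, at 12.82 in Arg1 ko and 13.16 in wild type. Anxa1 came next at 9.80 in Arg1 ko and 10.15 in wild type, before Krt7 at 9.51 in Arg1 ko and 9.71 in wild type. Anxa3 had 8.48 in Arg1 ko and 8.60 in wild type, and Clu had 7.68 in Arg1 ko and 8.05 in wild type. Plaur stood at 6.80 in Arg1 ko and 7.35 in wild type, and Msln at 4.86 in Arg1 ko and 5.62 in wild type. Spp1 was lowest, at 3.77 in Arg1 ko and 3.92 in wild type. The order of the 8 was the same in both groups, and within each group neighbours in it were further apart than the SD of either gene.

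The genes whose profile over the 8 libraries was most like that of a marker were picked by the smallest root mean square difference. Msln was followed most closely by Areg, a growth factor of the EGF family (0.129), and Slpi, a secreted protease inhibitor (0.145). For Plaur they were the transcription factor Cebpd (0.107) and Ifrd1 (0.116), for Anxa1 Tuft1 (0.031) and Zranb1 (0.048), and for Clu the immediate early gene Nr4a1 (0.072) and Mfng (0.110). Psmb8 (0.112) and Cd3d (0.116) were nearest to Ly6a, Bcat2 (0.023) and Rhog (0.038) to Spp1, Snapc5 (0.025) and Grtp1 (0.029) to Krt7, and Med22 (0.039) and Sgce (0.043) to Anxa3. The markers' own root mean square variation about their means was 0.097 for Anxa3 to 0.464 for Msln, and small values are easier to reach for a gene that varies little.

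A wider list of 34 other genes of fetal-like or wound epithelium was set beside the 8, of which 30 were tested. In Arg1 ko 22 of them were lower and 8 higher, with a median of -0.15. An unadjusted limma p under 0.05 was found for 7, all lower, as for 4.37% of the tested genes in that direction. None of the 30 passed the test over all genes (smallest limma adjusted p = 0.522). Areg had 9.29, 9.16, 9.72 and 9.65 in Arg1 ko 1 to 4, against 9.84, 10.09, 9.79 and 10.46 in the libraries labelled as wild type 1 to 4, with no overlap. Mmp7, a matrix protease, differed by -0.58, and Tnfrsf12a, the receptor of the cytokine Tweak, by -0.42, both without overlap. Krt23 differed by -0.67 with overlapping groups. Cd55 (-0.21) was the other gene with every Arg1 ko value below wild type, where 1.67% of all tested genes were so placed. Fstl1 (0.15) was the one with every Arg1 ko value above, as were 2.36% of all tested genes. Both are named after their values were seen. The median of the list was -0.06 without wild type 1 and 2.

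The YAP pathway, which acts upstream of this state, had list medians above 0 in Arg1 ko. Means of 13 of the 21 tested YAP and TEAD targets were higher in Arg1 ko and those of 8 lower, with a median of 0.04 and none past the test. Igfbp3 (-0.34) and Gadd45a (-0.50) had the smallest p, followed by Dock5 (0.36) and Crim1 (0.31). The widely used targets Ccn1 and Ccn2, named after their values were seen, differed by -0.25 and -0.17. All 15 components of the pathway were higher in Arg1 ko, by a median of 0.14, none past the test. Vgll4 differed by 0.26, Stk3 by 0.17, Mob1b by 0.17 and Yap1 by 0.16. The list mixes YAP and TEAD genes with genes that restrain them, such as Vgll4, Stk3 and Mob1b. Its median therefore gives no direction of YAP activity. Without wild type 1 the median of the components was 0.03 and that of the targets 0.01, and without wild type 1 and 2 they were -0.04 and -0.12. Leaving out either wild type 4 or Arg1 ko 2 gave a median of 0.09 for the targets. Genes of adult crypt base stem cells, which the fetal-like state replaces, were higher in 15 and lower in 2 of 17, with a median of 0.17. Lgr5 differed by 0.70, Axin2 by 0.58, Ephb3 by 0.39 and Prom1 by -0.23, none past the test, and the median without wild type 1 and 2 was 0.12.

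**Figure D4:**
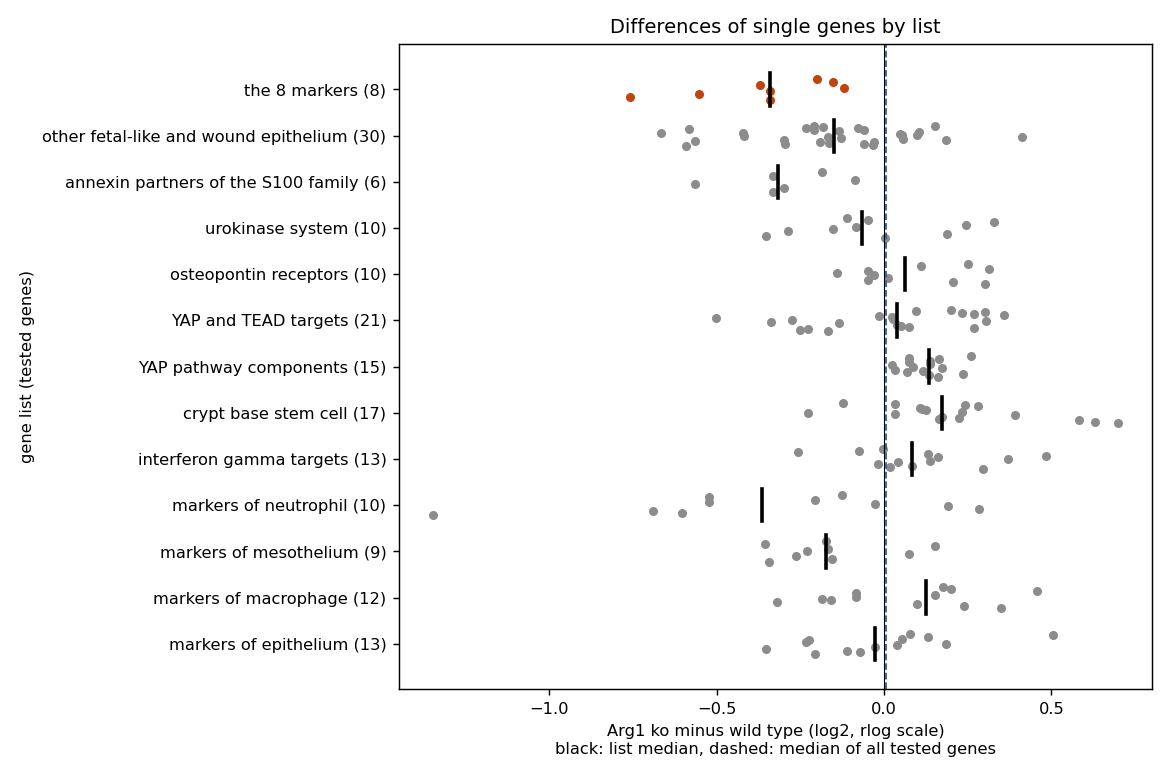
Difference of each tested gene, Arg1 ko minus wild type (log2, rlog scale), by list, with the number of tested genes in brackets. Black bars are list medians, and the dashed line is the median of all tested genes (0.0064). The 8 markers (median -0.34) all lie below 0, most of the wider list does (median -0.15), and 15 of 17 crypt base stem cell genes lie above it.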

How the data were processed

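What the authors deposited is 1 table of log2 values, the rlog transform of gene counts, scaled for library size and with weak genes drawn toward their mean. DESeq2 1.16.1, featureCounts of Subread 1.5.3, STAR 2.5.2b and BWA 0.7.14-r1136 are listed, per the submitters' processing notes, for GRCm38, without order or options. Each library took 1000 ng of total RNA into a stranded mRNA kit, per the labels' protocols. No count test was possible. Symbols, coordinates and exon lengths came from GENCODE vM21 (53274 of 53465 IDs matched). Listed symbols were matched for 286 of 288, 2 of them through RefSeq synonyms.

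Genes with a mean of at least 3 went into limma 3.58.1 under R 4.3.3 (empirical Bayes with a mean-dependent prior, group term only, two-sided, Benjamini-Hochberg at 0.05). A check on simulated data gave both groups the same spread, so it does not cover the wider scatter of wild type seen here. Intervals are limma's, at 95%. Groups follow the genotype label, replicates are numbered by order of deposit, which pairs nothing, and no label says whether libraries share a batch. Any p-value thus reflects only how these 8 samples scatter. The closest libraries lay 23.8 apart in Euclidean distance, so no duplicate was assumed. Lists are described by counts and medians without a test.

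The 8 markers and all lists were chosen with earlier results of these data known. Named are the 8 markers and Arg1, up to 4 genes of smallest p per list, the 2 marker genes of highest mean per cell type, and the 2 genes of nearest profile per marker; genes outside this rule are said to be so or are given as list values. One gene that the rule names is not reported here. Alternatives were other filters, scalings, moderations and weights, an adjusted p of 0.1, and leaving out libraries.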

Additional observations from a re-analysis of the deposited data

Results flagged for a closer look

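Among 180 groups of 4 values examined, 7 held a library far from the other 3, where chance flags about 1 group in 20. The lowest Anxa3 of Arg1 ko, 10.25 in Arg1 ko 4, lay apart from the other 3 Arg1 ko libraries. In the library labelled wild type 3, Arg1 (5.02), Krt18 (12.91), Anxa7 (12.13) and Car1 (17.51) were each far below the other wild-type libraries. Dock5 was lowest in Arg1 ko 2 at 10.75. Krt222 was highest in wild type 4 at 6.08.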

How the results depend on the processing

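With array weights limma called 10836 genes and 8 of the 8 markers, but the weighting stopped before convergence and weighted wild type 2 at 16.4 while the rest of the wild type got 0.135 to 0.304. Leaving out 1 library at a time gave 0 to 1005 called genes and 0 to 2 called markers, the calls arising only without the library labelled wild type 3. Under the other 7 alternatives of filter, scaling, moderation and threshold and without wild type 1 and 2, no gene was called. The count of 4 markers with non-overlapping groups was 4 to 6 under all 13 alternatives run. Leaving out libraries or changing the filter could not lower it, so these alternatives say nothing of its stability. Of those that could, aligning library medians gave 5 and quantile normalisation gave 4. The median of the 8 markers was -0.21 without wild type 1 and 2. In that setting the differences of Ly6a (0.14), Spp1 (0.068) and Krt7 (0.00046) turned positive, and the cause was not tested. Aligning library medians shifted every difference by -0.03 and reversed none of the 8. Spp1 was not tested at a mean of at least 5. No paired analysis was possible because the labels give no replicate numbers that groups share. The unknown depth leaves counting error without an interval, which matters most for Spp1.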
